A study of Homo sapiens with 6 samples.

Results

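Ribosomal protein processed pseudogenes were described in HK-2 cells, an immortalised human line of kidney proximal tubule epithelium, after exposure to cisplatin. They were taken from the deposited gene table by 2 features of each row, a gene type that contains processed pseudogene but not unprocessed, and a symbol that starts with RPL or RPS. The rule found 163 of the 18969 genes in the table, 147 of them annotated as processed pseudogenes and 16 as transcribed processed pseudogenes. The table held 737 other processed pseudogenes. Each member was set against its parent, the coding gene whose symbol stands before the final P and number, which gave 56 parents, all protein coding and all in the table. The compared groups were 3 libraries labelled Nfe2l1-OE, for overexpression of NFE2L1, and 3 libraries labelled WT, and the cells of both groups had received 20 µM cisplatin. NFE2L1 encodes a transcription factor, also called Nrf1, that switches on proteasome genes, and the study asked what its overexpression changes in cisplatin-treated tubule cells. The labels do not say how NFE2L1 was overexpressed, whether the cells were a clone or a pool, or whether each library is a culture of its own. The p-values therefore cover only the library-to-library spread, part or all of which could be technical.

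A processed pseudogene arises when a messenger RNA is reverse transcribed and inserted elsewhere in the genome, so that it lacks the introns and the promoter of its parent. Ribosomal protein genes, whose short messenger RNAs are abundant in dividing cells, have left many such copies in the human genome. Most are thought to be silent, some are transcribed from promoters near the insertion site, and a young copy can be so like its parent that short reads fit both.

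The sequences show how close the copies can be. They are given 5′ to 3′ on the sense strand from the GENCODE 29 transcripts (GRCh38), aligned to the parent's longest annotated coding sequence, and capitals mark bases at which the copy differs from the parent, added bases included. RPL41P1 (chr20:21755270-21755347, plus strand) is shown because it was the highest member, and its aligned bases are the whole coding sequence of RPL41 with 0 substitutions.
RPL41 and RPL41P1: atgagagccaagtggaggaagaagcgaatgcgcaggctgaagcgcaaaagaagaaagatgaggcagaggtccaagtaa
RPL39P3 (chr6:73373108-73373263, minus strand) also equals the whole coding sequence of its parent RPL39. Its relative RPL39P36 (chr19:53413193-53413345, plus strand) is shown as a more diverged copy of the same parent, with 10 substitutions in the 153 aligned bases.
RPL39 and RPL39P3: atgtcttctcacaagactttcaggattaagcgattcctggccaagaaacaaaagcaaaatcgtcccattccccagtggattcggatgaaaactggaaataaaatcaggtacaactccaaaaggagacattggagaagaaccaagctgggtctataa
RPL39P36: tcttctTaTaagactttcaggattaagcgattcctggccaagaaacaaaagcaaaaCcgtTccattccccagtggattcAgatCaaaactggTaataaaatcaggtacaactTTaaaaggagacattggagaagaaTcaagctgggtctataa
RPL21P16 equals RPL21 over all 483 bases, and RPL21P28 has 3 substitutions over the same length. The first 300 bases of both (chr10:120354884-120355183 and chr1:212051707-212052006, both minus strand) are shown because their fold changes lay above their parent's, and all 3 substitutions fall in them.
RPL21 and RPL21P16: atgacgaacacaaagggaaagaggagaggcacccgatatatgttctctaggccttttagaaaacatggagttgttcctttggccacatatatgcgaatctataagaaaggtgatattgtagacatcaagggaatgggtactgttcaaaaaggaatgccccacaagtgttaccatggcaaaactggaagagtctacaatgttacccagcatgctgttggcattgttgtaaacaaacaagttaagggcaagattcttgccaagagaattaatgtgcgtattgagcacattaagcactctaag
RPL21P28: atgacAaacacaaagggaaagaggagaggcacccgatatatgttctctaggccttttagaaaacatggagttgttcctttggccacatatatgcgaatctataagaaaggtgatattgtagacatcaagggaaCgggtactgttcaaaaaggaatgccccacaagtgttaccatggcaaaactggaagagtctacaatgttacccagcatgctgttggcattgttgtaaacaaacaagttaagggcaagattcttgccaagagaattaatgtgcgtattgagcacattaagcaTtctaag
RPL38P4 (chr3:98525061-98525274, minus strand) is shown because its fold change lay far below its parent's. It has 19 substitutions and 1 added base against RPL38.
RPL38: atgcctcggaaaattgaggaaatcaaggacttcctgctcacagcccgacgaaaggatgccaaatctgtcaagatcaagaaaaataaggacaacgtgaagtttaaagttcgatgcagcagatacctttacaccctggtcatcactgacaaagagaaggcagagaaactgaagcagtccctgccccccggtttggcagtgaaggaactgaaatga
RPL38P4: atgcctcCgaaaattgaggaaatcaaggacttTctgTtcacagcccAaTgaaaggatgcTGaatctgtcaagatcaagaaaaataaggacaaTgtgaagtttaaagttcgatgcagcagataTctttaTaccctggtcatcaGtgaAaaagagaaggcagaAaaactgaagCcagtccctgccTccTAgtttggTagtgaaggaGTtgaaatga
In all, 6 members carried the parent's coding sequence without a difference, RPL21P16, RPL39P3, RPL41P1, RPL41P2, RPL41P5 and RPS28P7.

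The libraries held 16865460 to 23458333 counted reads. NFE2L1, the gene that the label names, had 245, 744 and 340 CPM (counts scaled to depth by edgeR's TMM method) in the libraries labelled Nfe2l1-OE, against 234, 253 and 246 CPM in WT libraries. Nfe2l1-OE library 1 lay inside the WT range, and the difference did not pass the test (log2 fold change 0.86, SE 0.35, adjusted p = 0.115, edgeR quasi-likelihood test with Benjamini-Hochberg adjustment; exact two-sided permutation p = 0.3, with 0.1 the smallest that 3 against 3 allows). Without Nfe2l1-OE library 1 the NFE2L1 difference was 1.14 (adjusted p = 0.0286), so "Nfe2l1-OE" below means the libraries so labelled. Of 19 tubule epithelium markers 15 were in the table, with a summed 1897 to 2142 FPKM (fragments per kilobase of gene, scaled to sequencing depth) in Nfe2l1-OE and 1600 to 1677 FPKM in WT, carried by VIM, KRT8 and KRT18. Within that list HAVCR1, the gene of kidney injury molecule, fell to 16.2 ± 1.61 CPM in Nfe2l1-OE libraries, against 52.4 ± 18.1 CPM in WT libraries (SD, n = 3 each; log2 fold change -1.70, adjusted p = 0.0109, edgeR). The cadherin genes CDH2 and CDH6 had log2 fold changes of -0.66 and -0.61 that did not pass (adjusted p = 0.0627 and 0.307, edgeR). In the other direction, KRT18 and KRT7 rose by 0.62 and 1.25 on the log2 scale (adjusted p = 0.0207 and 0.0309, edgeR). KRT19 and EPCAM had 0.74 and 0.69 and did not pass (adjusted p = 0.0578 and 0.0557, edgeR). The list thus moved both ways in this test. An offset for each library's trend on gene length and GC content took KRT18 to 0.09 and KRT7 to 0.46. Neither keratin passed with it (adjusted p = 0.787 and 0.425, edgeR), whereas HAVCR1 did at -1.88 (adjusted p = 0.0396, edgeR). The transporters and channels of the differentiated proximal tubule, AQP1 and SLC34A1, were near 0. GGT1 had a mean of 0.356 FPKM, and CDH1, LRP2, CUBN and ANPEP of the list were not in the table. Of 12 markers of other cell types 3 were in the table, with a summed 1.09 to 1.93 FPKM in Nfe2l1-OE and 1.27 to 1.70 FPKM in WT. In bulk RNA, fewer cells of a type and less RNA per cell cannot be told apart.

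Levels were compared between genes as FPKM, which divides by gene length. The members spanned a mean of 0.112 to 620 FPKM over the 6 libraries, with a median of 0.948 FPKM, and 80 of the 163 reached 1 FPKM and 31 reached 10 FPKM. The parents had a median of 990 FPKM, from 3.70 FPKM for RPL17 to 5014 FPKM for RPS24. On the mean over libraries 116 members stood under 1% of the parent's FPKM, and 8 stood above 10%. Most copies thus stood far below their parent. The table's counting rule for reads that fit several places is not given in the sources used here, so a read of a near-identical copy and a read of its parent cannot be told apart with certainty, and every count below carries that limit.

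RPL41P1, a copy of the gene for one of the smallest ribosomal proteins, was the highest member. It had 689, 764 and 811 FPKM in Nfe2l1-OE libraries, against 467, 483 and 506 FPKM in WT libraries, and the groups did not overlap. Its mean of 620 FPKM was 47.0% of the 1319 FPKM of RPL41, over a feature of only 81 bases, against 676 bases for RPL41. RPL41P5, the same 78-base coding sequence at another place (chr12:93083598-93083675, minus strand), had a mean of 17.3 FPKM, so copies that are identical over the coding sequence were listed at very different levels. RPS2P5, a copy of the gene for a small-subunit protein at the messenger RNA entry channel, came next. It had 103, 216 and 138 FPKM in Nfe2l1-OE libraries, against 97.1, 103 and 117 FPKM in WT libraries. Nfe2l1-OE library 2 stood far above the rest, and the groups overlapped.

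RPL39P3, a copy of the gene for a protein that lines the exit tunnel, had 122, 113 and 137 FPKM in Nfe2l1-OE libraries, against 68.2, 66.3 and 106 FPKM in WT libraries. The groups did not overlap, and WT library 3 came closest to them. The other members of the 10 highest had means between 35.5 and 56.6 FPKM: RPL23AP42, RPS27AP16, RPL13AP5, RPS2P46, RPL21P16, RPL7P9 and RPL21P28. Of these 10, RPS2P5 and RPL7P9 overlapped between groups and the other 8 did not. By CPM, 21.8% of all genes tested were higher and 20.9% lower in Nfe2l1-OE without overlap. No such share is given for FPKM.

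**Figure D1:**
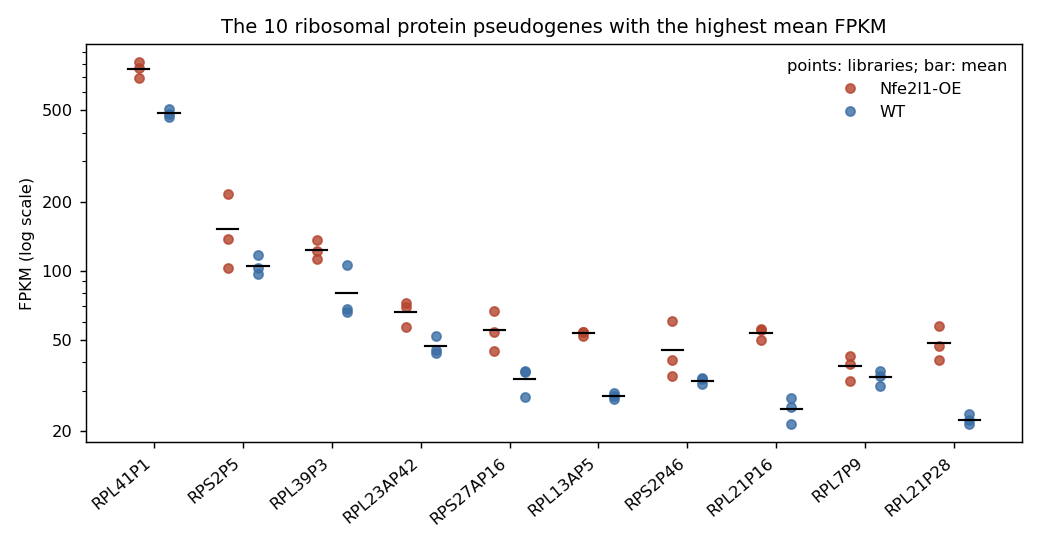
FPKM (log scale) of the 10 members with the highest mean level, one point per library, Nfe2l1-OE left of WT, with a bar at each group's mean (3 libraries each). RPL41P1 averaged 620 FPKM over the 6 libraries and RPL21P28 35.5 FPKM, and the points of RPS2P5 and RPL7P9 overlap between groups.

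Several members with a high share of the parent's level had a low parent. RPL17P50 reached 82.3% of RPL17, RPL17P36 29.2% and RPL17P51 12.9%, where RPL17 itself, the gene of a protein at the tunnel exit, had only 3.70 FPKM. RPS10P7 reached 68.8% of RPS10, which had 5.28 FPKM. RPL36AP54 reached 11.2% of RPL36A at 14.1 FPKM. The median over all parents was 990 FPKM, and whether reads of RPL17, RPS10 and RPL36A were counted at other features was not tested. RPL22P1, a copy of the gene for an RNA-binding large-subunit protein, reached 40.2% of RPL22, which had 67.8 FPKM. RPL41P1 and RPS28P7, at 11.6% of RPS28, completed the 8. These shares depend on length, since RPL41, RPS28 and RPL22 were listed with 676, 1330 and 2062 bases. By CPM all copies together made up 5.17% to 6.32% of RPL41 across the libraries. The same share was 1.39% to 2.38% for RPS28 and 6.36% to 11.9% for RPL22. RPL17P51, RPL36AP54, RPS10P7, RPL17P50 and RPL22P1 are named for this share, chosen after their values were seen.

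Counts of all 163 members together were a larger part of the reads in Nfe2l1-OE. They took 0.0768%, 0.0937% and 0.0868% of counted reads in Nfe2l1-OE libraries, against 0.0544%, 0.0530% and 0.0606% in WT libraries, without overlap. The parents took 8.53%, 9.09% and 7.74% in Nfe2l1-OE libraries, against 5.30%, 5.13% and 5.19% in WT libraries, also without overlap. Set against the parents' counts, the members made up 0.900%, 1.03% and 1.12% in Nfe2l1-OE libraries and 1.03%, 1.03% and 1.17% in WT libraries. Members and parents were both higher in Nfe2l1-OE, and their ratio overlapped between groups. RPS2P5 was the largest contributor of counts, with 11.8%, 20.3% and 14.0% of all member counts in Nfe2l1-OE libraries and 15.7%, 17.0% and 16.9% in WT libraries. Without RPS2P5 the members took 0.0677%, 0.0747% and 0.0747% of reads in Nfe2l1-OE libraries and 0.0459%, 0.0440% and 0.0503% in WT libraries, still without overlap.

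**Figure D2:**
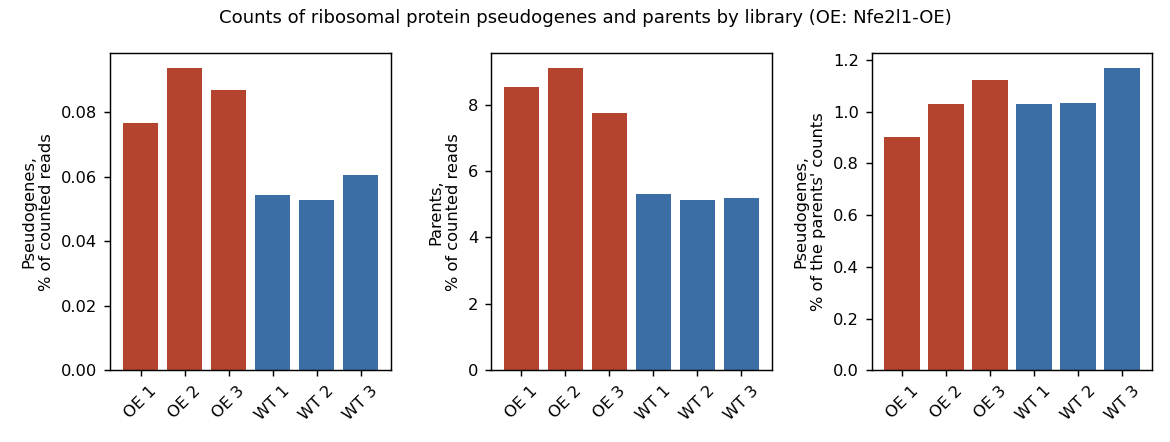
Summed counts by library, with Nfe2l1-OE (OE) libraries left of WT libraries: all 163 members and all 56 parents as a percentage of counted reads, and the members as a percentage of the parents' counts. The members' share is 0.0768% to 0.0937% in Nfe2l1-OE and 0.0530% to 0.0606% in WT, while the bars of the third panel overlap.

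For the test between groups, 86 members had enough counts and 77 did not. In edgeR's quasi-likelihood test with Benjamini-Hochberg adjustment over all 15046 genes tested, 21 of the 86 members rose and 0 fell at an adjusted p under 0.05. Over all genes tested 9.62% rose and 9.49% fell, and of 299 other processed pseudogenes tested 7.02% rose and 4.35% fell. At an unadjusted p under 0.05, 44 members were higher (18.3% of all genes tested) and 1 was lower (17.5%), and DESeq2's Wald test called 23 higher (11.8% of all genes it adjusted) and 0 lower (13.9%). Limma on log2(FPKM + 1) called 27 members higher and 3 lower (9.64% of all genes higher, 16.3% lower), and 13 higher and 5 lower after FPKM were rescaled to a common sum (4.26% higher, 33.7% lower). The members' log2 fold changes had a median of 0.70, from -1.10 to 1.63, and 77 lay above 0, beside a median of 0.03 over all genes tested. The CPM of the groups did not overlap in 45 members, 44 of them higher in Nfe2l1-OE (21.8% of all genes tested) and 1 lower (20.9%).

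Short genes as a class were also higher in Nfe2l1-OE, and 83 of the 86 tested members are under 1 kb. Of the 1830 tested features under 1 kb, 25.4% rose and 1.26% fell, with a median log2 fold change of 0.60. The 24.4% of members that rose is close to that share. With an offset for each library's trend on gene length and GC content, 1 member, RPL21P16, still passed (log2 fold change 1.01, adjusted p = 0.0454), where 0.465% of all genes rose and 0.226% fell, and the members' median became 0.32. With an offset on length alone 3 passed, RPL13AP25, RPL13P12 and RPL21P16, where 3.36% of all genes rose and 3.36% fell. The calls also depended on the libraries kept, as they did over all genes. Without WT library 1 or without WT library 2 edgeR called 0 members (0.0% of all genes higher in both, and 0.00643% and 0.0% lower). In these fits 36 and 27 members were higher at an unadjusted p under 0.05 (12.8% and 12.5% of all genes). Without WT library 3 edgeR called 16 (4.39% of all genes higher, 4.49% lower), and without Nfe2l1-OE library 1 it called 18 (8.18% higher, 8.57% lower). It called 10 without Nfe2l1-OE library 3 (5.7% of all genes higher, 4.37% lower) and 26 without Nfe2l1-OE library 2 (11.5% higher, 12.2% lower).

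The parents moved the same way. Of the 56 parents 49 rose and 0 fell in edgeR's test, beside 9.62% and 9.49% of all genes tested. Their median log2 fold change was 0.87, from -0.02 for RPL7L1 to 1.34 for RPS28. RPL7, RPL17, RPL22, RPL4, RPS10, RPL36A and RPL7L1 were the 7 that did not pass, and 0 parents were lower at an unadjusted p under 0.05 (17.5% of all genes). The parents that rose include genes of both subunits and of the stalk. With the length and GC offset 10 parents rose (0.465% of all genes). Without WT library 1 or WT library 2 the count was 0 (0.0% of all genes in both), with 52 and 50 higher at an unadjusted p under 0.05 (12.8% and 12.5% of all genes). All 21 members that rose have a parent that rose, and so do 55 of the 65 tested members that did not pass.

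Among copies of large-subunit genes 14 of 54 tested members rose, with a median log2 fold change of 0.74. Over all genes tested 9.62% rose, and over tested features under 1 kb 25.4%. RPL13AP25, a copy of the gene for a protein that can leave the ribosome to silence transcripts in interferon-treated monocytes, had the largest rise. It had 6.80, 6.88 and 4.68 CPM in Nfe2l1-OE libraries, against 1.46, 2.02 and 2.46 CPM in WT libraries. Every Nfe2l1-OE library stood above every WT library, a log2 fold change of 1.63 (SE 0.31, adjusted p = 0.0141). RPL13P12, from the large-subunit gene RPL13, had 23.1, 18.9 and 14.1 CPM in Nfe2l1-OE libraries, against 6.59, 6.97 and 7.34 CPM in WT libraries. The WT libraries lay close together and all Nfe2l1-OE libraries lay above them, with a log2 fold change of 1.42 (SE 0.24, adjusted p = 0.0116).

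RPL3P4 is a copy of part of RPL3, whose protein reaches towards the peptidyl transferase centre. It had 11.7, 8.28 and 8.06 CPM in Nfe2l1-OE libraries, against 3.57, 3.68 and 3.55 CPM in WT libraries, a log2 fold change of 1.37 (SE 0.25, adjusted p = 0.0132). All Nfe2l1-OE libraries were above WT, with library 1 the highest. RPL21P16, the exact copy of RPL21 printed above, had 25.1, 29.2 and 27.3 CPM in Nfe2l1-OE libraries, against 11.8, 9.99 and 12.6 CPM in WT libraries. RPL21P28 had 28.9, 24.9 and 20.0 CPM in Nfe2l1-OE libraries, against 9.99, 11.0 and 10.1 CPM in WT libraries. The groups of both RPL21 copies were far apart, with log2 fold changes of 1.24 each (SE 0.19 and adjusted p = 0.0109 for RPL21P16, SE 0.21 and adjusted p = 0.0116 for RPL21P28).

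RPL7AP50 (chromosome 10) had the second largest rise at 1.59 (SE 0.43, adjusted p = 0.0360) but rests on few reads. It had 10, 14 and 11 counts in Nfe2l1-OE libraries and 4, 4 and 5 counts in WT libraries. It thus met the count filter only through Nfe2l1-OE, the group where it was higher. Without that filter it did not pass (log2 fold change 1.57, adjusted p = 0.0575, edgeR). RPL41P1, the highest member, and RPL39P3, the third highest, rose by 0.78 (SE 0.16, adjusted p = 0.0155) and 0.77 (SE 0.23, adjusted p = 0.0466). Other large-subunit copies that rose include RPL23AP42, RPL13AP5, RPL6P27, RPL10P16 and RPLP0P6, a copy of the gene for the stalk base, and these 5 had log2 fold changes from 0.63 to 1.07.

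Among copies of small-subunit genes 7 of 32 tested members rose, with a median log2 fold change of 0.69. The shares were 9.62% over all genes tested and 25.4% over tested features under 1 kb. RPSAP19 is a copy of RPSA, whose product is both a small-subunit protein and a laminin receptor. It had 4.02, 6.60 and 3.98 CPM in Nfe2l1-OE libraries, against 1.33, 1.93 and 2.13 CPM in WT libraries (log2 fold change 1.44, SE 0.33, adjusted p = 0.0220). The groups did not overlap, and Nfe2l1-OE library 2 was highest. RPS15P4, a copy of the gene for a protein near the decoding site, had 8.72, 8.52 and 11.3 CPM in Nfe2l1-OE libraries, against 3.19, 3.38 and 5.02 CPM in WT libraries (log2 fold change 1.30, SE 0.27, adjusted p = 0.0175). RPS28P7, an exact copy of the RPS28 coding sequence, had 8.10, 7.77 and 7.87 CPM in Nfe2l1-OE libraries, against 2.71, 2.19 and 4.78 CPM in WT libraries (log2 fold change 1.29, SE 0.32, adjusted p = 0.0269). Both stood above WT in every library. RPS27AP16, RPSAP58, RPS3AP6 and RPS7P1 rose by 0.70 to 1.00 on the log2 scale.

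RPS2P5 and RPS2P46 did not pass, although they are among the highest members. RPS2P46 had 34.8, 60.7 and 40.9 FPKM in Nfe2l1-OE libraries, against 33.7, 34.2 and 32.1 FPKM in WT libraries (log2 fold change 0.60, SE 0.24, adjusted p = 0.112). RPS2P5 had a log2 fold change of 0.68 (SE 0.27, adjusted p = 0.105), and without Nfe2l1-OE library 1 it passed at 0.90 (adjusted p = 0.0325). Library 2 of Nfe2l1-OE was the highest for both copies, as it was for RPS2 itself with 2443, 3948 and 2436 CPM in Nfe2l1-OE libraries, against 1635, 1621 and 1677 CPM in WT libraries. With the length and GC offset the log2 fold changes of RPS2P5 and RPS2P46 turned to -0.19 and -0.27. RPL7P9 had 25.8, 32.2 and 32.2 CPM in Nfe2l1-OE libraries, against 26.3, 25.1 and 22.2 CPM in WT libraries. Its log2 fold change of 0.30 (SE 0.18, adjusted p = 0.278) turned to -0.15 with FPKM rescaled to a common sum and to -0.21 with the length offset.

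**Figure D3:**
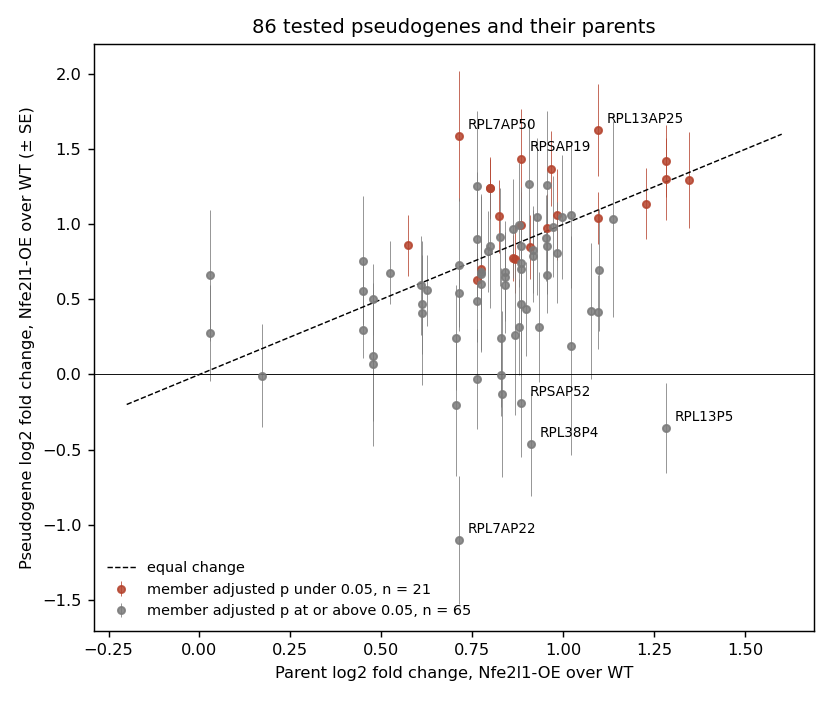
Log2 fold change (Nfe2l1-OE over WT) of the 86 tested members, with its SE, against that of the parent; red points passed an adjusted p of 0.05, and the dashed line marks equal change. Red points lie in the upper right, where both rose, and RPL7AP22, RPL13P5, RPL38P4 and RPSAP52 lie below 0 although their parents rose.

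Each pair was then compared within libraries, as the log2 ratio of member to parent. It depends on library scaling only through the prior count of 2 added to both. At low counts that prior moves the member's value more than the parent's, and its part in the ratios is not given here. The member minus parent difference in log2 fold change had a median of -0.09, from -1.82 to 0.88, and 67 of the 86 pairs lay within 0.5 of equal change. The ratio overlapped between groups in 70 pairs, was higher in Nfe2l1-OE without overlap in 5, and lower in 11. In 184 other processed pseudogenes with a tested parent the same counts were 5.98% higher and 11.4% lower, with a median difference of -0.12. The counts of 5 and 11 of 86 pairs are close to that background. The lowest exact two-sided permutation p that 3 against 3 libraries allow is 0.1. Any pair without overlap reaches it, as all 16 did, so it adds nothing to the lack of overlap. Without Nfe2l1-OE library 3 the lower pairs numbered 24 and without WT library 1 they numbered 18. Without Nfe2l1-OE library 2 the higher pairs numbered 10 and without WT library 3 they numbered 11. Fewer libraries separate more easily, and no share of other processed pseudogenes is given for these sets, so these counts cannot be set beside 5 and 11.

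The 5 higher pairs were RPL21P28, RPL3P4, RPL13AP25, RPSAP19 and RPL7AP50. RPL7AP50 is among them on few counts, and without the count filter it did not pass in its own right. The log2 ratio of RPSAP19 to RPSA was -8.96, -8.98 and -8.88 in Nfe2l1-OE libraries, against -9.85, -9.31 and -9.27 in WT libraries. The log2 ratio of RPL13AP25 to RPL13A was -8.13, -8.29 and -8.15 in Nfe2l1-OE libraries, against -9.02, -8.74 and -8.38 in WT libraries. The parents had themselves risen, and the mean log2 ratio was 0.54 higher in Nfe2l1-OE for RPSAP19 and 0.52 higher for RPL13AP25. The exact two-sided permutation p of 0.1 for each follows from the lack of overlap. The log2 ratio of RPL21P28 to RPL21 was -6.06, -6.57 and -6.35 in Nfe2l1-OE libraries, against -6.95, -6.70 and -6.64 in WT libraries, and the nearest libraries of the groups almost touched. RPL21P28 lies opposite DTL, a ubiquitin ligase adaptor gene, whose log2 fold change was -0.41 (SE 0.19, adjusted p = 0.151). RPL17P36 and RPL23AP74 also had large differences from their parents (0.63 and 0.49), but their ratios overlapped and neither passed in its own right (adjusted p = 0.307 and 0.111). RPL23AP74 lies inside BCAS3, on the same strand, which had a log2 fold change of -0.43 (SE 0.48, adjusted p = 0.553).

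Of the lower pairs, RPL7AP22 was the farthest from its parent. It is a copy of RPL7A on chromosome 2, inside PKP4, a gene of cell junctions, on the same strand. RPL7AP22 had 0.433, 0.421 and 0.515 CPM in Nfe2l1-OE libraries, against 1.25, 1.14 and 0.568 CPM in WT libraries. It was the only tested member whose Nfe2l1-OE libraries all lay below WT, and it did not pass (log2 fold change -1.10, SE 0.43, adjusted p = 0.0992), while RPL7A rose by 0.71. PKP4 had a log2 fold change of -0.14 (SE 0.38, adjusted p = 0.820).

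RPL13P5 had 2.78, 2.81 and 1.87 CPM in Nfe2l1-OE libraries, against 2.97, 3.81 and 2.75 CPM in WT libraries (log2 fold change -0.36, SE 0.30, adjusted p = 0.423). Its log2 ratio to RPL13 was -9.09, -9.22 and -9.18 in Nfe2l1-OE libraries, against -7.60, -7.26 and -7.80 in WT libraries. The level of RPL13P5 overlapped between groups, whereas its ratio was well apart, since RPL13 rose by 1.28. RPL13P5 has a spliced isoform and lies opposite SPSB2, an adaptor of a ubiquitin ligase, which had a log2 fold change of 0.72 (SE 0.32, adjusted p = 0.139). RPL38P4, printed above, had 1.79, 2.57 and 1.31 CPM in Nfe2l1-OE libraries, against 2.45, 2.24 and 3.17 CPM in WT libraries (log2 fold change -0.47, SE 0.34, adjusted p = 0.356). RPL38, whose protein steers translation of homeobox transcripts in mouse embryos, rose by 0.91. After FPKM were rescaled to a common sum, limma called RPL13P5 (-0.66, adjusted p = 0.0284) and RPL38P4 (-0.86, adjusted p = 0.0154) lower, on a scale on which the median of all genes was -0.35.

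RPSAP52 had 0.742, 1.03 and 1.45 CPM in Nfe2l1-OE libraries, against 1.29, 1.10 and 1.33 CPM in WT libraries, an overlap (log2 fold change -0.19, SE 0.36, adjusted p = 0.735). Its log2 ratio to RPSA was -11.26, -11.55 and -10.27 in Nfe2l1-OE libraries, against -9.89, -10.08 and -9.91 in WT libraries. RPSA thus had 1 copy with a higher ratio in Nfe2l1-OE, RPSAP19, and 1 with a lower ratio, RPSAP52. RPL23P2, a copy of the gene for a large-subunit protein that also binds MDM2, was in the 5 smallest differences too (-0.96), but with 4, 13 and 11 counts in Nfe2l1-OE libraries and 5, 13 and 16 counts in WT libraries its ratio overlapped. The other lower pairs were RPS2P46, RPL13AP20, RPL12P4, RPS7P11, RPS18P9, RPL23AP53 and RPS20P14.

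**Figure D4:**
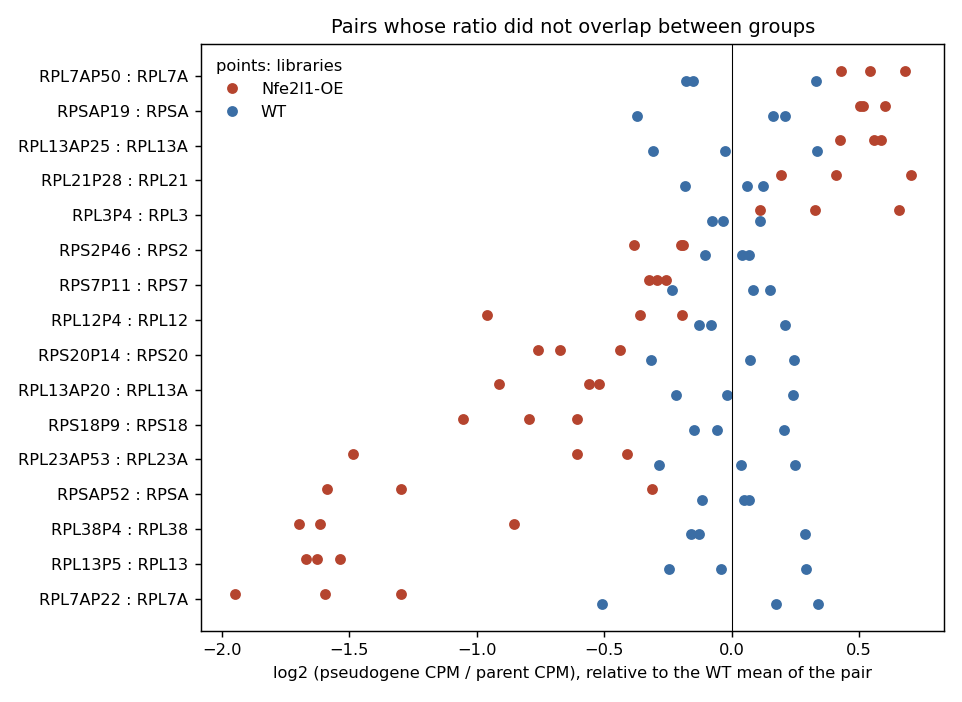
Log2 ratio of pseudogene to parent CPM in each library, relative to the WT mean of the pair, for the 16 pairs whose groups did not overlap, with Nfe2l1-OE points drawn above WT points. RPL7AP50, RPSAP19, RPL13AP25, RPL21P28 and RPL3P4 lie to the right of WT, and 11 pairs lie to the left, farthest for RPL7AP22, RPL13P5 and RPL38P4.

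The members differed in how far they had drifted from the parent. Identity to the parent's coding sequence, the share of aligned positions that match, had a median of 96.0% over the 163 members, from 67.2% to 100%. Levels were higher in the closer classes: the median was 0.451 FPKM for the 31 members under 90% identity, 0.390 FPKM for the 38 from 90% to 95%, 1.09 FPKM for the 46 from 95% to 98%, 8.20 FPKM for the 21 from 98% to 99%, and 15.0 FPKM for the 27 at 99% or more. Spearman's rho between identity and mean FPKM was 0.56 across the 163 members, which share libraries and often a parent. Of the tested members 0 of 7 under 90% and 0 of 9 from 90% to 95% rose in edgeR's test, against 5 of 31, 4 of 19 and 12 of 20 in the closer classes. Over all genes tested 9.62% rose, and over tested features under 1 kb 25.4%. Classes of 7 and 9 members are too small to tell 0 from 9.62%. The median difference from the parent was -0.79, -0.46, -0.09, -0.10 and 0.01 from the least to the most identical class. The median count per library of these tested members was 15.7, 30.3, 17.2, 135 and 292 in the same order of classes, and the part of depth in these counts of calls was not tested. The longest stretch identical to the parent had a median of 36 bases under 90% and 285 bases at 99% or more. How reads of such stretches were shared between copy and parent was not tested.

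**Figure D5:**
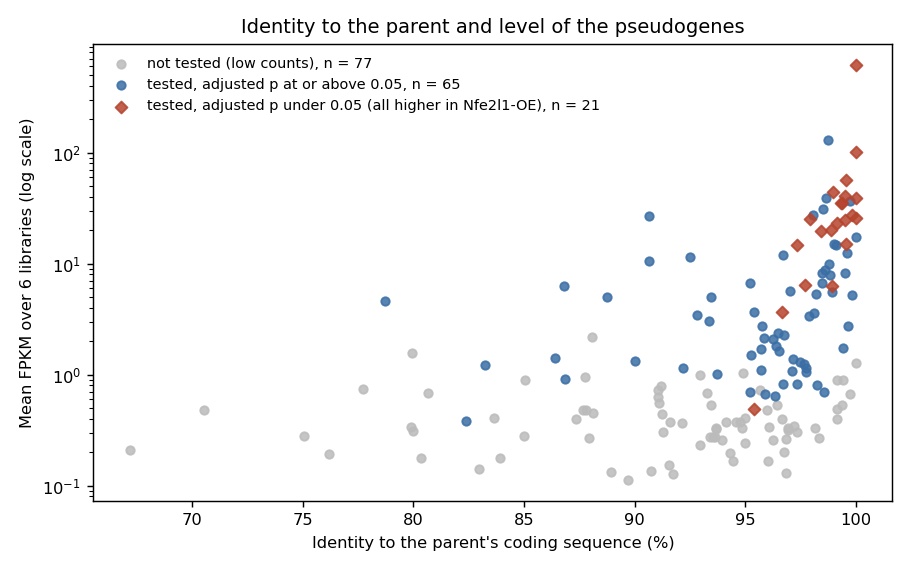
Mean FPKM over 6 libraries (log scale) against identity to the parent's coding sequence for the 163 members, with grey for the 77 not tested, blue for the 65 tested that did not pass, and red for the 21 that rose. All red points lie above 95% identity, and the highest levels stand at the right edge.

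An open reading frame of the parent's full length was kept in 32 members, 23 of them tested. Of these 23, 12 rose, and all 23 had a log2 fold change above 0, with a median of 0.86. Of the 63 tested members with a broken frame 9 rose, and their median was 0.66. Beside them, 9.62% of all genes tested and 25.4% of tested features under 1 kb rose. The members with a full frame were also the closer copies, with a median identity of 99.4% against 96.7%, so frame and identity cannot be told apart here.

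Members annotated with a spliced isoform had a lower median fold change than single-exon members, a difference that was not tested. There were 19 in the table and 9 were tested, of which 1, RPL6P27, rose, with a median log2 fold change of -0.005 and 5 below 0. Of the 77 tested members with a single exon 20 rose, with a median of 0.74 and 4 below 0. The share that rose was 9.62% over all genes tested and 25.4% over tested features under 1 kb. The ratio to the parent was lower in Nfe2l1-OE without overlap in 4 of the 9, RPL13P5, RPSAP52, RPS18P9 and RPL23AP53, and in 7 of the 77. The same held for 11.4% of the 184 other processed pseudogenes with a tested parent. RPS18P9, for example, had 3.46, 2.95 and 2.76 CPM in Nfe2l1-OE libraries, against 3.62, 2.59 and 2.98 CPM in WT libraries, while RPS18 rose by 0.83. The levels of RPS18P9 overlapped completely. The spliced members also had a lower identity (median 90.6%, against 97.9% for single-exon members), and the part of each was not tested.

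Some members lie within another gene of the table. There were 40 inside a gene on the same strand, of which 2 overlapped an exon of that gene, and 31 inside a gene on the opposite strand. Strand use in counting is not given in the sources used here. Reads of a member and of a gene on the opposite strand therefore cannot be told apart. On the same strand, how reads from the host's introns were counted was not tested. Of the 14 tested members inside a host on the same strand 2 rose, RPSAP58 among them, with a median log2 fold change of 0.78. For the rest these were 19 of 72 and 0.70. Among all genes tested 9.62% rose, and among tested features under 1 kb 25.4%. RPS2P5 lies opposite TAOK3, a kinase gene, whose log2 fold change was -0.10 (SE 0.47, adjusted p = 0.897). RPLP1P6 and RPL22P1, named after their values were seen, lie inside hosts that passed edgeR's test, though not with the length and GC offset. RPL22P1 had 12.7, 16.0 and 13.2 CPM in Nfe2l1-OE libraries, against 8.35, 8.11 and 9.66 CPM in WT libraries (log2 fold change 0.68, SE 0.21, adjusted p = 0.0534). Its host MECOM, a transcription factor gene, fell by 1.61 on the log2 scale (adjusted p = 0.0136), so member and host stood apart. With the length and GC offset MECOM had -1.12 (adjusted p = 0.0823, edgeR). RPLP1P6 had 1.79, 11.4 and 3.28 CPM in Nfe2l1-OE libraries, against 2.24, 1.49 and 4.36 CPM in WT libraries, with 1 library far above the others and an overlap (adjusted p = 0.287). Its host ATOX1, a copper chaperone gene, rose by 1.05 (adjusted p = 0.0141), and had 0.77 with the length and GC offset (adjusted p = 0.0665, edgeR).

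The copies were spread over 23 chromosomes, and 9 lay on the chromosome of their parent. Of the 9 families with at least 5 members, RPL21 had 10 members in the table, 3 tested and 2 risen, RPSA had 10, 7 and 2, and RPS3A had 10, 4 and 1. RPL23A had 9 members, 5 tested and 1 risen, and RPL7A had 8, 4 and 1. In the families of RPS2, RPS26, RPL7 and RPS15A, with 6, 6, 5 and 5 members and 3, 1, 3 and 2 tested, 0 rose in edgeR's test. RPL7 did not pass itself (log2 fold change 0.45, SE 0.15, adjusted p = 0.0677), whereas RPS2, RPS26 and RPS15A rose by 0.84, 0.93 and 1.02. The other 5 of these parents, RPL21, RPSA, RPS3A, RPL23A and RPL7A, rose by 0.80, 0.88, 0.77, 0.76 and 0.71. In each of these 9 families most copies were not tested or did not pass, and 9.62% of all genes tested rose.

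The 77 members without enough counts for the test had a mean of 1.67 to 12.5 counts per library. Their mean CPM was higher in Nfe2l1-OE in 61 and lower in 16, and their summed counts were 1166 in Nfe2l1-OE and 880 in WT libraries. The groups did not overlap in 16 of them, with 11 higher and 5 lower in Nfe2l1-OE, beside 9.07% higher and 6.63% lower among all 3923 features with too few counts for the test. RPL39P16, one of the 5, had 2, 3 and 4 counts in Nfe2l1-OE libraries, against 12, 17 and 5 counts in WT libraries, and RPS26P3, one of the 11, had 9, 7 and 11 counts in Nfe2l1-OE libraries, against 4, 4 and 3 counts in WT libraries. Both were chosen after their values were seen, and at this depth neither difference was tested. The number of members with at least 1 count was alike, 156, 157 and 156 in Nfe2l1-OE libraries and 151, 156 and 155 in WT libraries.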

How the data were processed

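The 6 HK-2 libraries were made from 2 µg of RNA with a strand-specific messenger RNA kit, per the labels' protocols. Reads were trimmed with Trimmomatic 0.36 and the build was GRCh38, both per the submitters' processing notes. For alignment, counting and shared reads the method is not given in the sources used here. Raw read counts and FPKM per gene and library were deposited, with log2 fold changes, p-values and −log10 values of the authors' own test, which were not used for any result. For all 163 members, count divided by FPKM gave the length of the pseudogene transcript.

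Counts were fitted in R 4.3.3 by edgeR 4.0.16 after TMM scaling, with filterByExpr, glmQLFit and glmQLFTest, and Benjamini-Hochberg adjustment over 15046 genes. The standard error is the absolute log2 fold change over the square root of F. Ratios to the parent used log2 CPM with a prior count of 2 and an exact permutation test over 20 assignments. Copies were aligned with Biopython 1.88 (local, match 2, mismatch -3, gap opening -5, gap extension -2). Alternatives used DESeq2 1.42.0, limma 3.58.1 on log2(FPKM + 1), and smooth offsets on length and GC content (mgcv 1.9.3). The fit was tested on simulated data. Members, gene lists and tests were chosen with earlier results of these data known. The text names the 10 highest members, the 10 largest rises, the 5 largest and 5 smallest differences from the parent, parents of families of at least 5, and hosts; others, and those listed to complete a count, were named after their values were seen. 1 member that this rule names is not reported here.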

Additional observations from a re-analysis of the deposited data

How the results depend on the processing

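The median log2 fold change of tested members stayed above 0 in all alternatives run, at 0.56 with total counts, 0.45 with limma on log2(FPKM + 1), 0.82 with at least 50 counts in 3 libraries, 0.25 with the length offset, 0.32 with the length and GC offset, and 0.19 with FPKM rescaled to a common sum, against all-gene medians of -0.11 (total counts) and -0.35 (rescaled). Members that rose numbered 13 (rescaled), 3 (length) and 1 (length and GC), and 0 to 26 when 1 library was left out; members that fell numbered 5 (rescaled) and 3 (limma on FPKM). Parents that rose numbered 32, 16 and 10 in the same 3 settings (4.26%, 3.36% and 0.465% of all genes), and 0 to 49 when 1 library was left out. The median member minus parent difference was -0.29 with the length and GC offset, and -0.18 to 0.04 when 1 library was left out, above 0 only without WT library 3. Pairs without overlap of the ratio numbered 5 to 11 higher and 12 to 24 lower when 1 library was left out, where fewer libraries separate more easily. NFE2L1 ranged from 0.25 with FPKM rescaled to 1.21 with the length offset, and from 0.25 without Nfe2l1-OE library 2 to 1.14 without library 1. Signs turned for RPL7P9 (-0.15 rescaled, -0.21 length), RPS2P46 (-0.27) and RPS2P5 (-0.19) with the length and GC offset, RPL23P2 (0.13 without Nfe2l1-OE library 1, 0.24 without WT library 3; range -0.51 to 0.24 when 1 library was left out, -0.54 with the length offset) and RPSAP52 (0.0026 without Nfe2l1-OE library 1; range -0.47 to 0.0026 when 1 library was left out, -0.67 with the length offset and -0.55 with the length and GC offset). The cause of these shifts was not tested. The labels do not say whether same-numbered libraries are paired. Correlations of same-numbered deviations were 0.006, -0.512 and 0.088, and those of other combinations ranged from -0.502 to 0.598, which does not decide it. The fit with the replicate block called 0 members and 0 parents, and 0 of all 15046 genes. In that fit 33 members and 52 parents were higher at an unadjusted p under 0.05 (14.5% of all genes).

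Low counts kept 77 members out of the test, and counts of near-identical copies depend on how the authors assigned shared reads.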
